A study of Caenorhabditis elegans with 8 samples.

Results

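Maternal RNA-binding proteins control which stored messages are translated in Caenorhabditis elegans oocytes and early embryos. Growing oocytes load the egg with mRNAs that are kept silent and are then translated at a set time and place, and most of the proteins described here bind the 3′ ends of such messages. Several of them are also distributed unevenly along the axis of the zygote, where the PAR polarity kinases set up an anterior and a posterior domain. The genes were taken by name from the deposited expression table: oma-1, oma-2, mex-3, mex-5, mex-6, pos-1, spn-4, pie-1, puf-5 and puf-11, which are 10 of the 46904 genes listed. The products of oma-1, oma-2, mex-5, mex-6, pos-1 and pie-1 carry CCCH zinc fingers, that of mex-3 carries KH domains, and those of puf-5 and puf-11 are PUF proteins. The product of spn-4 binds RNA through an RNA recognition motif, so it belongs to none of these families. All 10 genes were among the 15365 that passed the filter on low values, a mean of at least 1 FPKM over the libraries, where FPKM stands for fragments per kilobase and per M mapped fragments, a level that takes gene length into account.

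The study sequenced poly(A) RNA from whole hermaphrodites in 8 libraries, with n = 2 libraries in each of 4 groups. The groups were daf-2; aak(0); hzl-1 post-dauers, daf-2; hzl-1 post-dauers, daf-2; aak(0); hzl-1 dauers and daf-2; hzl-1 dauers, written aak(0) and daf-2 hzl-1 below. Every group carried mutations in hzl-1 and in daf-2, which encodes the insulin/IGF receptor and whose loss makes larvae enter dauer arrest. The aak(0) animals had also lost both genes for the catalytic subunit of AMPK, a sensor of cellular energy, which are aak-1 and aak-2. Dauers, which are arrested larvae, were collected at 96 h and post-dauers, which have left the arrest, at 192 h. The sample labels give growth at 25 °C, while the description of the series places the post-dauers 96 h after a shift to a permissive temperature and does not name hzl-1. The labels name no alleles and do not say that libraries of a group came from separate cultures, so p-values may measure technical spread only. Animals with an intact daf-2 or hzl-1 gene were not analysed here.

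Libraries held between 13.99 and 26.98 M reads, and the lowest read number of any of the 10 genes was 92. The share of rRNA reads lay between 0.548% and 5.25% in post-dauers and between 1.09% and 12.4% in dauers, and in dauers it differed more between libraries of a group than between the genotypes' means. The libraries of a group differed by more than 2-fold, on FPKM + 1, for 15.7% of the tested genes in aak(0) post-dauers and 10.7% in daf-2 hzl-1 dauers, against 2.14% in aak(0) dauers and 2.83% among the daf-2 hzl-1 post-dauers. The 10 genes themselves differed between libraries of a group by at most 1.35-fold (puf-11) in aak(0) post-dauers, 1.06-fold (pie-1) in daf-2 hzl-1 post-dauers, 1.23-fold (oma-2) in aak(0) dauers and 1.67-fold (pie-1) in daf-2 hzl-1 dauers. Transcripts of aak-1 and aak-2 were present in the libraries labelled aak(0). The level of aak-1 was 7.16 and 7.72 FPKM in aak(0) post-dauers, against 8.75 and 8.59 FPKM in daf-2 hzl-1 post-dauers. In aak(0) dauers it was 14.71 and 9.99 FPKM, against 3.10 and 3.19 FPKM in daf-2 hzl-1 dauers. That of aak-2 was 9.85 and 9.4 FPKM in aak(0) post-dauers, against 20.20 and 18.39 FPKM in daf-2 hzl-1 post-dauers. In aak(0) dauers aak-2 stood at 37.94 and 49.15 FPKM, against 35.56 and 43.56 FPKM in daf-2 hzl-1 dauers. A deletion within a gene cannot be seen in a value for the whole gene, so no label was checked by these transcripts.

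The 10 protein-coding genes lie on 5 chromosomes, with positions as the deposited table gives them for the build WBcel235. On chromosome IV are oma-1 (WBGene00003864, IV:8888976-8890999, forward strand), mex-5 (WBGene00003230, IV:13353723-13356104, forward) and puf-11 (WBGene00022257, IV:6421589-6423489, forward). On chromosome V are oma-2 (WBGene00003865, V:8029439-8031214, forward), pos-1 (WBGene00004078, V:8414085-8415254, forward) and spn-4 (WBGene00004984, V:6783187-6784922, reverse). On chromosome II are mex-6 (WBGene00003231, II:9524174-9526390, forward) and puf-5 (WBGene00004241, II:8575541-8577732, forward). The others are pie-1 (WBGene00004027, III:12426862-12429195, forward) and mex-3 (WBGene00003229, I:127297-134065, forward). Exons of pie-1 share 24 nt with snr-6 on the opposite strand and those of spn-4 share 8 nt with ZC404.15. Strandedness is not given in the sources used here, so reads in those stretches may come from either gene. The gene pairs oma-1 and oma-2, mex-5 and mex-6, and puf-11 and its close relative puf-3 are paralogs, and how reads shared between paralogs were assigned is also not given.

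Transcripts of the 10 genes were abundant in post-dauers of both genotypes and separated the genotypes in dauers. Their summed level was 3214 and 3759 FPKM in aak(0) post-dauers and 3266 and 3269 FPKM in daf-2 hzl-1 post-dauers. It was 699 and 635 FPKM in aak(0) dauers and 86.8 and 78.5 FPKM in daf-2 hzl-1 dauers. As a share of all reads, the 10 genes took 0.472% and 0.565% in aak(0) post-dauers, against 0.496% and 0.494% for daf-2 hzl-1 post-dauers. In dauers they took 0.105% and 0.0941% with aak(0) and 0.0128% and 0.0112% with daf-2 hzl-1. Libraries of whole animals cannot tell fewer cells of a type from less RNA per cell.

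**Figure D1:**
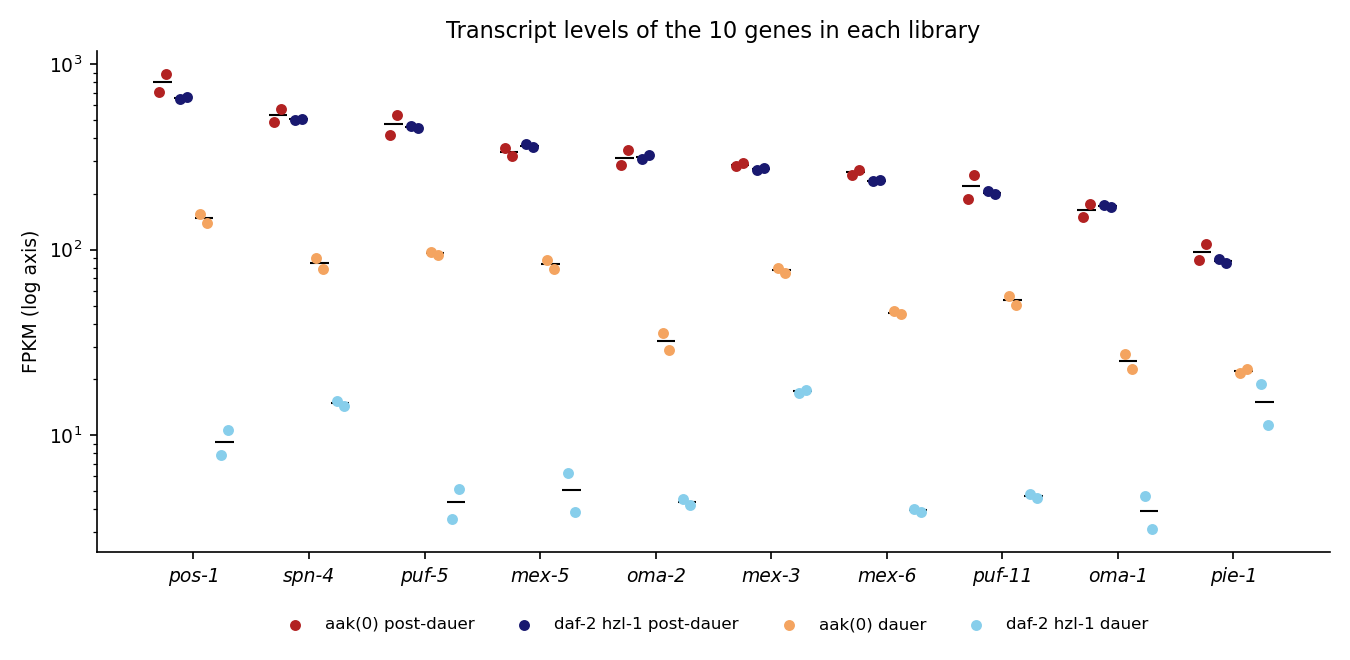
FPKM of each of the 10 genes in each library, on a log axis, with points for single libraries and bars for the mean of the 2 libraries of a group. In post-dauers the points of both genotypes lie close together, and in dauers the aak(0) points lie above the daf-2 hzl-1 points for every gene, with the smallest gap for pie-1.

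The OMA proteins are needed redundantly for oocytes to mature, and they hold many maternal messages silent until then. For oma-1 the level was 150.87 and 175.76 FPKM in aak(0) post-dauers and 174.31 and 169.27 FPKM in daf-2 hzl-1 post-dauers, against 27.48 and 22.73 FPKM in aak(0) dauers and 4.67 and 3.10 FPKM in daf-2 hzl-1 dauers. For oma-2 it was 284.61 and 343.35 FPKM in aak(0) post-dauers and 308.13 and 322.61 FPKM in daf-2 hzl-1 post-dauers, against 35.38 and 28.88 FPKM in aak(0) dauers and 4.52 and 4.20 FPKM in daf-2 hzl-1 dauers. Both genes were high in all 4 post-dauer libraries, and their dauer libraries did not overlap between genotypes. For all 10 genes the aak(0) dauer libraries lay above those of daf-2 hzl-1, while 73.7% of all tested genes did not overlap there and 58.5% were higher in both aak(0) libraries. The ratio of oma-1 to oma-2 was 0.521 ± 0.0129 in aak(0) post-dauers, against 0.545 ± 0.0290 for daf-2 hzl-1 post-dauers (mean ± SD, n = 2). Among dauers it was 0.782 ± 0.00731 with aak(0) and 0.886 ± 0.209 with daf-2 hzl-1. So oma-2 was the more abundant of the pair in 7 of the 8 libraries, the exception being daf-2 hzl-1 dauer library 1, where the ratio was 1.03.

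PUF proteins bind short motifs in 3′ untranslated regions, and puf-5 and puf-11 act late in oogenesis, where oocytes grow and become organised. Transcripts of puf-5 stood at 413.55 and 534.33 FPKM in aak(0) post-dauers and 463.12 and 454.04 FPKM in daf-2 hzl-1 post-dauers, against 97.53 and 93.69 FPKM in aak(0) dauers and 3.53 and 5.15 FPKM in daf-2 hzl-1 dauers. Those of puf-11 stood at 188.28 and 254.14 FPKM in aak(0) post-dauers and 207.49 and 199.16 FPKM in daf-2 hzl-1 post-dauers, against 56.16 and 50.65 FPKM in aak(0) dauers and 4.83 and 4.56 FPKM in daf-2 hzl-1 dauers. As the ratio of the highest to the lowest library, puf-5 had the widest range of the 10 genes, at 151-fold, against 114-fold for pos-1. The ratio of puf-5 to puf-11 was 2.15 ± 0.0664 in aak(0) post-dauers, 2.26 ± 0.0338 in daf-2 hzl-1 post-dauers, 1.79 ± 0.0800 in aak(0) dauers and 0.930 ± 0.282 in daf-2 hzl-1 dauers (mean ± SD, n = 2).

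MEX-3, a KH-domain protein, represses translation of the homeobox message pal-1 in anterior blastomeres. In post-dauers mex-3 measured 283.74 and 292.13 FPKM with aak(0) and 267.67 and 275.39 FPKM with daf-2 hzl-1. In dauers it measured 79.44 and 75.09 FPKM with aak(0) and 16.96 and 17.59 FPKM with daf-2 hzl-1. Among daf-2 hzl-1 dauers, mex-3 had the highest mean of the 10 genes.

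MEX-5 and MEX-6 are related zinc-finger proteins that gather at the anterior of the zygote, where MEX-5 answers to the kinase PAR-1, and that keep germline proteins such as PIE-1 and POS-1 to the posterior. The level of mex-5 was 352.45 and 318.37 FPKM in aak(0) post-dauers and 370.82 and 356.94 FPKM in daf-2 hzl-1 post-dauers, against 87.86 and 79.06 FPKM in aak(0) dauers and 6.25 and 3.84 FPKM in daf-2 hzl-1 dauers. That of mex-6 was 253.70 and 269.43 FPKM in aak(0) post-dauers and 235.19 and 237.10 FPKM in daf-2 hzl-1 post-dauers, against 46.63 and 44.83 FPKM in aak(0) dauers and 4.02 and 3.86 FPKM in daf-2 hzl-1 dauers. The ratio of mex-5 to mex-6 was 1.29 ± 0.147 in aak(0) post-dauers, 1.54 ± 0.0504 in daf-2 hzl-1 post-dauers, 1.82 ± 0.0853 in aak(0) dauers and 1.27 ± 0.396 in daf-2 hzl-1 dauers (mean ± SD, n = 2). Group means of this ratio lay between 1.27 and 1.82, against 0.930 and 2.26 for puf-5 over puf-11.

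POS-1 and SPN-4 bind maternal messages in the early embryo, among them glp-1 and nos-2, and control where these are translated. Transcripts of pos-1 were the most abundant of the 10 in post-dauers, at 710.34 and 891.45 FPKM with aak(0) and 648.32 and 662.87 FPKM with daf-2 hzl-1. In dauers pos-1 measured 155.83 and 139.02 FPKM with aak(0) and 7.79 and 10.62 FPKM with daf-2 hzl-1. For spn-4 the values were 488.26 and 573.13 FPKM in aak(0) post-dauers and 501.89 and 507.49 FPKM in daf-2 hzl-1 post-dauers, against 90.79 and 78.36 FPKM in aak(0) dauers and 15.32 and 14.34 FPKM in daf-2 hzl-1 dauers. The ratio of mean FPKM between the genotypes of dauers was 16.0 for pos-1 and 5.70 for spn-4.

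PIE-1 keeps transcription repressed in the germline blastomeres of the embryo and is also present in the adult germline. Its transcript was the least abundant of the 10 in post-dauers, at 88.08 and 106.97 FPKM with aak(0) and 89.47 and 84.35 FPKM with daf-2 hzl-1. In dauers pie-1 measured 21.59 and 22.64 FPKM with aak(0) and 18.87 and 11.28 FPKM with daf-2 hzl-1. As for 73.7% of all tested genes, the dauer libraries did not overlap between genotypes, but the gap between the closest libraries was smaller than that between the daf-2 hzl-1 dauer libraries.

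Within post-dauers the order of mean FPKM was the same in both genotypes, from pos-1 through spn-4, puf-5, mex-5, oma-2, mex-3, mex-6, puf-11 and oma-1 to pie-1. In daf-2 hzl-1 post-dauers no neighbours in this order overlapped between libraries. In aak(0) post-dauers the neighbours spn-4 and puf-5, mex-5 and oma-2, oma-2 and mex-3, and mex-6 and puf-11 overlapped. In aak(0) dauers the order ran pos-1, puf-5, spn-4, mex-5, mex-3, puf-11, mex-6, oma-2, oma-1 and pie-1, so that oma-2 stood at rank 8, against rank 5 in both groups of post-dauers. There the neighbours spn-4 and mex-5, and mex-5 and mex-3, overlapped. In daf-2 hzl-1 dauers the order ran mex-3, pie-1, spn-4, pos-1, mex-5, puf-11, oma-2, puf-5, mex-6 and oma-1, with overlap between most neighbours. The gaps that held in that group were those below spn-4, below pos-1 and below puf-11.

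Leaving dauer was accompanied by a large rise of all 10 transcripts in daf-2 hzl-1. In post-dauers the mean FPKM was 5.77-fold (pie-1) to 106-fold (puf-5) that of dauers, with a median of 52.1-fold. All 10 of 10 genes were called higher in post-dauers than in dauers by limma on log2(FPKM + 1) at an adjusted p under 0.05, where 39.4% of all tested genes were called higher and 27.8% lower. On that scale the largest rise was that of puf-5 (limma log2 6.44 ± 0.20, adjusted p = 5.63e-06), followed by pos-1 (log2 6.02 ± 0.19), mex-5 (log2 5.94 ± 0.21) and oma-2 (log2 5.88 ± 0.17), each ± SE. The rises of mex-6 (log2 5.59 ± 0.13), puf-11 (log2 5.17 ± 0.18), oma-1 (log2 5.16 ± 0.21) and spn-4 (log2 5.00 ± 0.15) came next. The smallest were those of mex-3 (log2 3.90 ± 0.12) and pie-1 (limma log2 2.49 ± 0.25, adjusted p = 1.93e-04). The median over the 10 genes was log2 5.38, against log2 0.34 over all tested genes. On recovered reads edgeR also called all 10, where it called 68.5% of its genes in either direction. Limma called 6060 genes higher and 4275 lower here, while edgeR called 5648 higher and 6033 lower.

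In aak(0) the same 10 transcripts also rose. In post-dauers the mean FPKM was 3.73-fold (mex-3) to 9.77-fold (oma-2) that of dauers, with a median of 5.19-fold. All 10 of 10 genes were called higher by limma, where 25.9% of all tested genes were called higher and 27% lower. On recovered reads edgeR also called all 10, where it called 54.8% of its genes in either direction. The largest rises were those of oma-2 (limma log2 3.25 ± 0.17, adjusted p = 7.29e-05), oma-1 (log2 2.66 ± 0.21), spn-4 (log2 2.63 ± 0.15), mex-6 (log2 2.49 ± 0.13) and pos-1 (log2 2.43 ± 0.19). Those of puf-5 (log2 2.29 ± 0.20), pie-1 (log2 2.09 ± 0.25), puf-11 (log2 2.02 ± 0.18), mex-5 (log2 1.99 ± 0.21) and mex-3 (log2 1.88 ± 0.12) were smaller. The highest limma adjusted p among the 10 was 8.15e-04, for pie-1. The median was log2 2.36, against log2 0.02 over all tested genes. In the authors' deposited tables, whose values are dauer over post-dauer, the log2 fold changes ran from -3.352 (oma-2) to -1.981 (mex-3) in aak(0) and from -6.576 (puf-5) to -2.578 (pie-1) in daf-2 hzl-1.

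**Figure D2:**
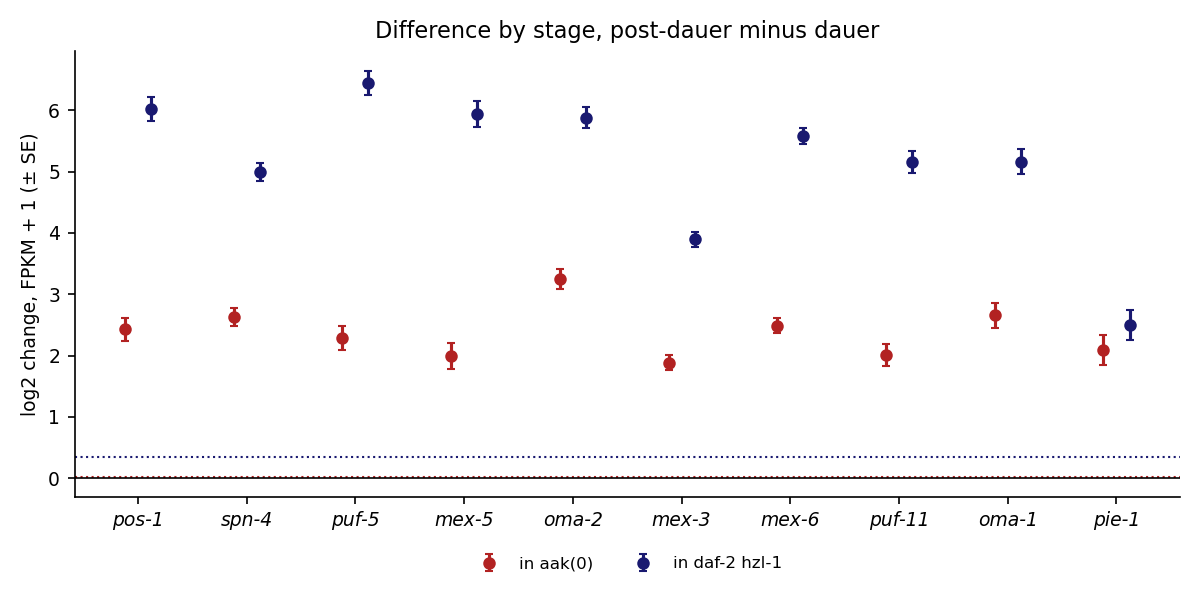
Log2 change on FPKM + 1, post-dauer minus dauer, of each of the 10 genes in aak(0) and in daf-2 hzl-1, with bars for ± SE and dotted lines for the median of all tested genes in each genotype. The daf-2 hzl-1 points lie between 2.49 and 6.44 and the aak(0) points between 1.88 and 3.25, and the points of pie-1 are the closest pair.

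The difference between these stage changes was tested as an interaction. Limma called 9 of 10 genes with a smaller rise in aak(0), where 7.8% of all tested genes were called in that direction. On recovered reads edgeR called the same number, where it called 13% of its genes in either direction. The difference of stage changes, aak(0) minus daf-2 hzl-1, was log2 -4.16 ± 0.28 for puf-5, -3.95 ± 0.30 for mex-5, -3.59 ± 0.27 for pos-1, -3.15 ± 0.25 for puf-11 and -3.10 ± 0.18 for mex-6. It was log2 -2.63 ± 0.24 for oma-2, -2.51 ± 0.29 for oma-1, -2.36 ± 0.21 for spn-4 and -2.01 ± 0.17 for mex-3. Limma adjusted p for these 9 genes lay between 0.00170 and 0.00501. For pie-1 the difference was log2 -0.41 ± 0.35 (limma adjusted p = 0.453), with a 95% interval from -1.24 to 0.42. The median of all tested genes was itself log2 -0.34, and relative to it the 9 called genes ran from log2 -3.82 to -1.68.

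In dauers, 9 of the 10 transcripts were higher with aak(0) than with daf-2 hzl-1. The ratio of mean FPKM was 22.0 for puf-5, 16.5 for mex-5, 16.0 for pos-1, 11.6 for mex-6 and 11.4 for puf-11. It was 7.37 for oma-2, 6.46 for oma-1, 5.70 for spn-4 and 4.47 for mex-3. Limma called these 9 of 10 genes higher, where 25.5% of all tested genes were called higher and 3.6% lower. On recovered reads edgeR also called 9, where it called 14.8% of its genes higher and 22.8% in either direction, and DESeq2 called 9, where it called 16.1% in either direction. The largest difference on the log2(FPKM + 1) scale was log2 4.19 ± 0.20 (puf-5, limma adjusted p = 1.68e-04) and the smallest among the 9 was log2 2.10 ± 0.12 (mex-3, limma adjusted p = 1.94e-04). Within paralog pairs the difference was log2 2.43 ± 0.21 for oma-1 beside 2.62 ± 0.17 for oma-2, 3.83 ± 0.21 for mex-5 beside 3.24 ± 0.13 for mex-6, and 3.25 ± 0.18 for puf-11 beside 4.28 ± 0.25 for puf-3. Differences within pairs were not tested.

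The exception in dauers was pie-1, which was not called (limma log2 0.57 ± 0.25, adjusted p = 0.130, edgeR log2 0.24, adjusted p = 0.655). The 95% interval of its difference ran from log2 -0.02 to 1.15, below the interval of each of the other 9 genes, the lowest of which began at log2 1.80 (mex-3). Without daf-2 hzl-1 dauer library 1, where pie-1 was the higher of the pair, limma called it higher with aak(0) (log2 0.91, adjusted p = 0.0248). Over all alternatives its adjusted p ranged from 0.0248 to 0.845. The opposite-strand neighbour snr-6, which shares 24 nt of exon with pie-1, had 611 to 3775 reads per library, and its part in the pie-1 values was not tested.

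Many genes were higher in aak(0) dauers, so the values were also set against the whole table. The median of all tested genes was log2 0.41 on the FPKM scale and 0.06 after TMM scaling of the same table. Relative to the median on the FPKM scale, the 9 called genes stood at log2 1.69 to 3.79 and pie-1 at 0.16. Limma called 3911 genes higher and 553 lower, against 2518 higher and 1363 lower by edgeR. Of all tested genes, 99.2% had a lower log2 difference than puf-5, 92.0% a lower one than mex-3 and 58.8% a lower one than pie-1.

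In post-dauers no genotype difference was detected for any of the 10 genes. Limma called 0 of 10, with 0 at an unadjusted p under 0.05, and edgeR and DESeq2 on recovered reads also called 0. Over all genes, 4.66% were called by limma (4.22% higher), 4.17% by edgeR and 4.3% by DESeq2. The log2 difference, aak(0) minus daf-2 hzl-1, ran from -0.12 ± 0.21 (mex-5, limma adjusted p = 0.785) to 0.28 ± 0.19 (pos-1, limma adjusted p = 0.444). The 95% intervals ran from log2 -0.62 to 0.38 for mex-5, from -0.57 to 0.42 for oma-1, from -0.44 to 0.51 for puf-5, from -0.17 to 0.73 for pos-1 and from -0.43 to 0.75 for pie-1, so that differences inside these limits could not be seen. Post-dauer libraries did not overlap between genotypes for 4 of the 10 genes, with mex-3, mex-6 and pos-1 higher and mex-5 lower in aak(0), while 50.5% of all tested genes did not overlap. Under TMM scaling the sign turned for mex-3, spn-4, puf-5 and puf-11.

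**Figure D3:**
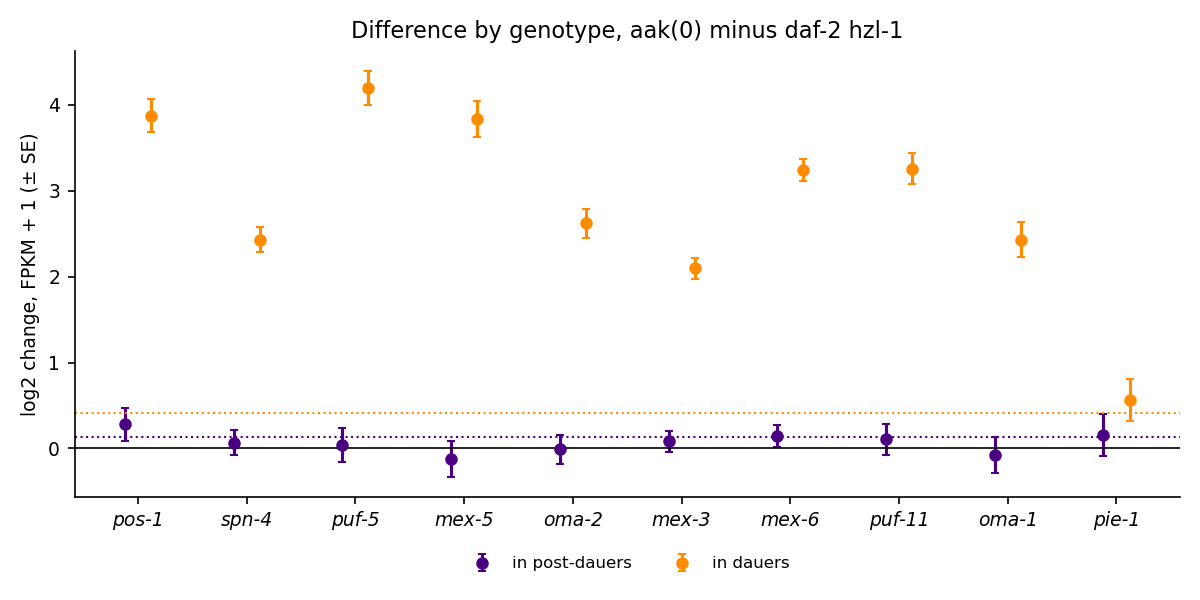
Log2 difference on FPKM + 1, aak(0) minus daf-2 hzl-1, of each of the 10 genes in post-dauers and in dauers, with bars for ± SE and dotted lines for the median of all tested genes at each stage. In post-dauers every point lies between -0.12 and 0.28, and in dauers 9 points lie between 2.10 and 4.19 with pie-1 at 0.57.

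Seen from another side, aak(0) dauers held 10.2% (oma-2) to 26.8% (mex-3) of the mean FPKM of aak(0) post-dauers, with a median of 19.3%. The daf-2 hzl-1 dauers held 0.946% (puf-5) to 17.3% (pie-1) of their own post-dauer mean, with a median of 1.96%. For pie-1 the share was 22.7% ± 0.761 in aak(0) dauers and 17.3% ± 6.18 in daf-2 hzl-1 dauers (SD, n = 2), a difference within the spread of the daf-2 hzl-1 dauer libraries. For mex-5 the share was 24.9% ± 1.86 in aak(0) dauers and 1.39% ± 0.468 in daf-2 hzl-1 dauers, and the libraries of the 2 genotypes did not overlap.

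Related genes outside the 10 were split in dauers. Among 5 tested of 6 other CCCH genes, 1 was higher and 1 lower in aak(0), with a median of log2 0.28 against 0.41 over all genes. The higher one was mex-1, which acts with the PIE-1 and POS-1 proteins in the early embryo. It measured 33.76 and 34.80 FPKM in aak(0) dauers, against 3.77 and 1.99 FPKM in daf-2 hzl-1 dauers (limma log2 3.22 ± 0.23, adjusted p = 3.32e-04). The lower one was moe-3, at 68.39 and 69.26 FPKM in aak(0) dauers and 145.75 and 150.51 FPKM in daf-2 hzl-1 dauers (limma log2 -1.09 ± 0.17, adjusted p = 0.00508). Unlike the 10 genes, moe-3 was lower in post-dauers than in dauers, with log2 -2.75 ± 0.17 in aak(0) and -3.90 ± 0.17 in daf-2 hzl-1.

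Of the 9 other PUF genes, 4 were higher and 1 lower in aak(0) dauers, with a median of log2 0.24. The close relative of puf-11, puf-3, measured 88.05 and 74.40 FPKM in aak(0) dauers, against 2.30 and 4.36 FPKM in daf-2 hzl-1 dauers (limma log2 4.28 ± 0.25, adjusted p = 1.89e-04). The related genes puf-6 (log2 3.17 ± 0.17), puf-7 (log2 2.72 ± 0.16) and puf-10 (log2 1.68 ± 0.22) were the others called higher, and how reads shared between them were assigned is not given. The PUF genes of germline stem cells, fbf-1 (limma log2 -0.12 ± 0.21, adjusted p = 0.714) and fbf-2 (limma log2 0.24 ± 0.23, adjusted p = 0.470), were not called. The one called lower, puf-8 (limma log2 -0.58 ± 0.17, adjusted p = 0.0428), is named because of its value.

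Among 16 other germline RNA regulators, 9 were higher and 1 lower in aak(0) dauers, with a median of log2 1.00, while edgeR called 7 of them in either direction. The Nanos gene nos-2, needed in primordial germ cells, measured 35.74 and 36.33 FPKM in aak(0) dauers, against 1.17 and 1.13 FPKM in daf-2 hzl-1 dauers (limma log2 4.11 ± 0.15, adjusted p = 1.49e-04). The meiotic translational repressor gld-1 measured 79.58 and 79.43 FPKM in aak(0) dauers, against 17.48 and 13.22 FPKM in daf-2 hzl-1 dauers (limma log2 2.31 ± 0.17, adjusted p = 3.37e-04). Not called was lin-41, whose product holds oocytes back from maturation, at 38.16 and 46.99 FPKM in aak(0) dauers and 36.91 and 27.44 FPKM in daf-2 hzl-1 dauers (limma log2 0.40 ± 0.26, adjusted p = 0.288). The one called lower was fog-3, a gene of sperm fate named because of its value, at 5.29 and 5.02 FPKM in aak(0) dauers and 22.43 and 17.84 FPKM in daf-2 hzl-1 dauers.

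Of 12 known mRNA targets of proteins encoded by the 10 genes, 10 were higher and 0 lower in aak(0) dauers, with a median of log2 1.83. Limma called 25.5% of all tested genes higher there. The lists overlap, as nos-2 is also among the other germline RNA regulators, zif-1 among the turnover genes and rme-2 among the oocyte and eggshell markers. Among them were the yolk receptor gene rme-2 (log2 4.08 ± 0.20), pal-1 (log2 1.76 ± 0.21) and zif-1 (log2 1.20 ± 0.19), while the Notch receptor gene glp-1 was not called (limma log2 0.67 ± 0.40, adjusted p = 0.248). Of 8 components of repressed messenger particles, 7 were higher by limma and 2 were called by edgeR, with a median of log2 0.80. These included the Y-box gene cey-2, at 388.06 and 375.00 FPKM in aak(0) dauers and 78.05 and 77.25 FPKM in daf-2 hzl-1 dauers.

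The polarity genes that work with MEX-5 and MEX-6 differed less. Of 18 cell polarity genes, 7 were higher in aak(0) dauers by limma and 2 were called by edgeR, with a median of log2 0.37, close to the 0.41 of all genes. The posterior gene par-2 was higher by limma (log2 1.06 ± 0.20, adjusted p = 0.0100) and missed the threshold by edgeR (adjusted p = 0.0590). Not called were the kinase gene par-1 (limma log2 -0.12 ± 0.26, adjusted p = 0.763) and mbk-2, whose kinase marks OMA-1 for removal (limma log2 0.25 ± 0.13, adjusted p = 0.184). Of 11 genes for turnover of the maternal proteins, 1 was higher and 1 lower, with a median of log2 0.17. The higher one was zif-1, which recruits CCCH proteins to a ubiquitin ligase, and the lower one was skr-2 (limma log2 -0.65 ± 0.18, adjusted p = 0.0334).

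**Figure D4:**
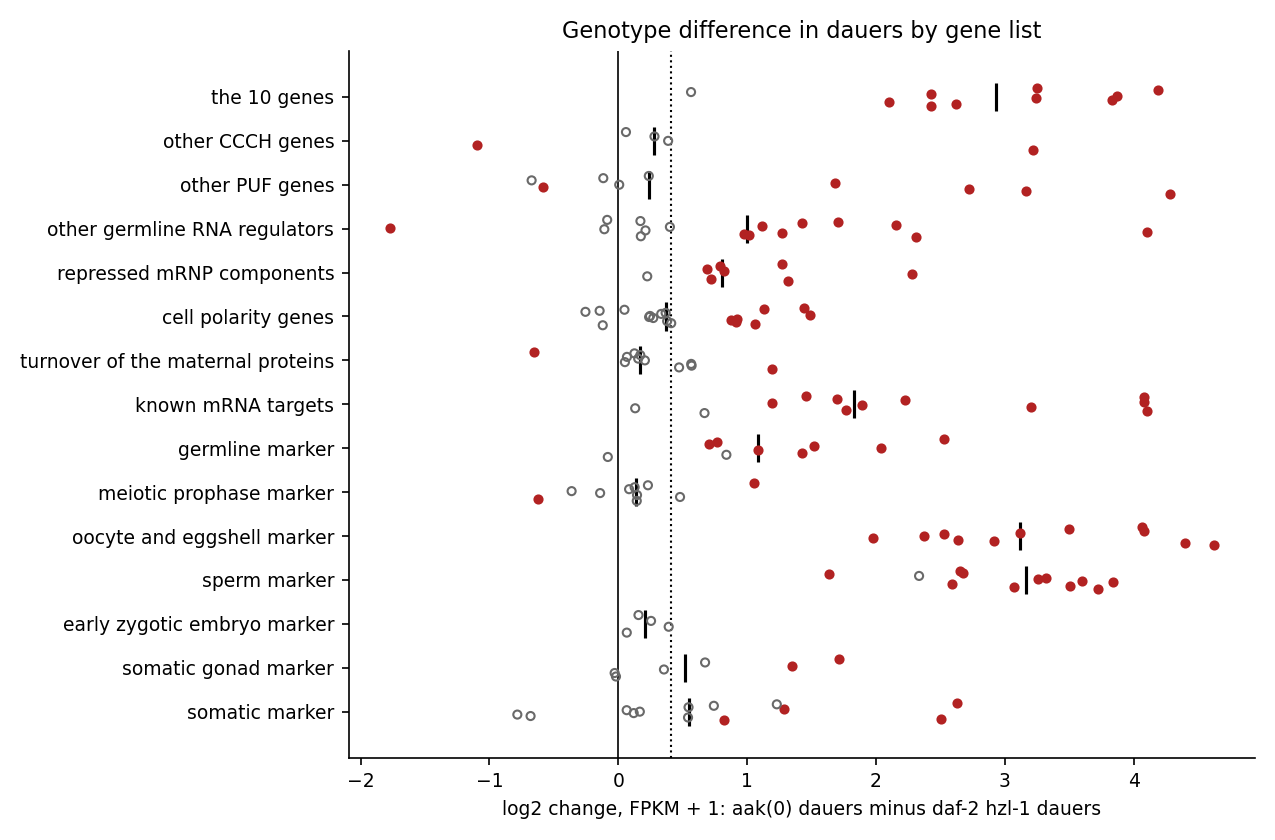
Log2 difference on FPKM + 1, aak(0) dauers minus daf-2 hzl-1 dauers, with a point per tested gene in each list, filled where limma called it, a bar for the median of the list and a dotted line for the median of all tested genes at 0.41. Of the 10 genes 9 lie at 2.10 or above and pie-1 at 0.57, near the dotted line. The oocyte and eggshell markers begin at 1.98 and the sperm markers at 1.64, and the medians of the other CCCH, other PUF, polarity, turnover, meiotic prophase and early zygotic lists lie left of the dotted line.

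With the change of stage, limma called the same lists as follows, where it called 25.9% of all tested genes higher and 27% lower in aak(0) and 39.4% higher and 27.8% lower in daf-2 hzl-1. In aak(0), post-dauers were higher than dauers for 3 and lower for 2 of 5 other CCCH genes, higher for 7 and lower for 2 of 9 other PUF genes, and higher for 11 of 16 other germline RNA regulators. They were higher for 7 of 8 messenger particle components, 13 of 18 polarity genes and 11 of 12 known targets, and higher for 5 and lower for 1 of 11 turnover genes. In daf-2 hzl-1, post-dauers were higher for 2 and lower for 2 of 5 other CCCH genes, higher for 7 and lower for 2 of 9 other PUF genes, and higher for 13 and lower for 1 of 16 other germline RNA regulators. They were higher for 8 of 8 messenger particle components, 16 of 18 polarity genes and 11 of 12 known targets, and higher for 7 and lower for 1 of 11 turnover genes. In daf-2 hzl-1 edgeR called 12 polarity genes, 4 turnover genes and 7 messenger particle components in either direction. The genes lower in post-dauers of both genotypes were moe-3 and ccch-1, puf-9 and puf-12, and the turnover gene skr-1, and fog-3 was lower in daf-2 hzl-1 post-dauers; of these, ccch-1, puf-9, puf-12, skr-1 and fog-3 are named because of their values. The medians were log2 1.49 in aak(0) and 3.67 in daf-2 hzl-1 for the known targets, and 0.75 in aak(0) and 1.14 in daf-2 hzl-1 for the polarity genes.

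The difference of stage changes was called negative for 10 of 12 known targets by limma (6 called by edgeR), 6 of 16 other germline RNA regulators, 4 of 9 other PUF genes, 5 of 8 messenger particle components (2 called by edgeR), 3 of 18 polarity genes (0 called by edgeR), 1 of 5 other CCCH genes and 1 of 11 turnover genes (0 called by edgeR). It was called positive for fog-3 and for the CCCH genes moe-3 and dct-13. It was largest for rme-2 (log2 -4.70 ± 0.29) and puf-3 (log2 -4.26 ± 0.35) among the genes named here, beside -4.16 for puf-5. In post-dauers limma called 1 of 5 other CCCH genes, dct-13, at 3.91 and 2.89 FPKM in aak(0) and 0.10 and 0.18 FPKM in daf-2 hzl-1. As dct-13 passed the filter only through the aak(0) post-dauers, its calls are not independent of that filter. Limma called 0 of the 9 other PUF genes, 16 other germline RNA regulators, 8 messenger particle components, 18 polarity genes, 11 turnover genes and 12 known targets. At an unadjusted p under 0.05 those 6 lists with no call held 0, 3, 3, 1, 1 and 1 genes, edgeR called 0 in each, and DESeq2 called 2 of the germline RNA regulators and 0 in the other 5.

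Markers of oocytes, sperm and the germline were also higher in aak(0) dauers. The summed level of 11 oocyte and eggshell markers was 5998 and 6414 FPKM in aak(0) post-dauers, 6703 and 6611 FPKM for daf-2 hzl-1 post-dauers, 957 and 906 FPKM in aak(0) dauers and 57.3 and 59.6 FPKM in daf-2 hzl-1 dauers. In dauers limma called 11 of 11 higher with aak(0), where it called 25.5% of all tested genes higher. The log2 differences ran from 1.98 to 4.62, and no marker was at 0 in both libraries of any group. In aak(0) dauers perm-2 measured 7.41 and 2.91 FPKM and perm-4 8.46 and 2.02 FPKM, so the libraries stood apart for these genes, named because of their values. In daf-2 hzl-1 dauers, where the sum was lowest, 10 of the 11 had reads in both libraries. The other, perm-4, named because of its value, had 0 and 1 reads there.

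The summed level of 15 sperm markers was 3139 and 3177 FPKM in aak(0) post-dauers, 2074 and 1639 FPKM for daf-2 hzl-1 post-dauers, 511 and 559 FPKM in aak(0) dauers and 36.6 and 61.4 FPKM in daf-2 hzl-1 dauers. Of the 12 that were tested, limma called 11 higher in aak(0) dauers, where it called 25.5% of all tested genes higher. In post-dauers limma called 0 of these 12, with 9 at an unadjusted p under 0.05. Libraries of the genotypes did not overlap there for 10, while 50.5% of all tested genes did not overlap. Several of the sperm markers are msp genes, and how reads shared between such genes were assigned is not given. For 9 general germline markers the sum was 995 and 967 FPKM in aak(0) post-dauers, 1254 and 1098 FPKM for daf-2 hzl-1 post-dauers, 389 and 392 FPKM in aak(0) dauers and 227 and 159 FPKM in daf-2 hzl-1 dauers. Of these, 7 of 9 were called higher in aak(0) dauers by limma, while edgeR and DESeq2 called 4 each. For 10 meiotic prophase markers it was 537 and 427 FPKM in aak(0) post-dauers, 562 and 664 FPKM for daf-2 hzl-1 post-dauers, 247 and 237 FPKM in aak(0) dauers and 259 and 217 FPKM in daf-2 hzl-1 dauers, with 1 higher and 1 lower in aak(0) dauers. The sums of sperm and oocyte markers thus stood apart by genotype in dauers, and those of meiotic prophase markers overlapped. Taken singly, 6 of the 10 meiotic prophase markers did not overlap there, while 73.7% of all tested genes did not overlap.

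Of 7 somatic gonad markers the sum was 165 and 126 FPKM in aak(0) post-dauers, 129 and 159 FPKM for daf-2 hzl-1 post-dauers, 37.5 and 39.0 FPKM in aak(0) dauers and 28.1 and 33.3 FPKM in daf-2 hzl-1 dauers. Of the 6 tested, 2 were higher in aak(0) dauers. For 13 somatic markers the sum was 4539 and 3962 FPKM in aak(0) post-dauers, 11841 and 12309 FPKM for daf-2 hzl-1 post-dauers, 1727 and 1954 FPKM in aak(0) dauers and 1911 and 2096 FPKM in daf-2 hzl-1 dauers. The yolk genes vit-2 and vit-6, expressed in the intestine, made up 2867 and 2062 FPKM of this sum in aak(0) post-dauers and 10429 and 11108 FPKM of it in daf-2 hzl-1 post-dauers. Without them the other 11 summed to 1672 and 1901 FPKM in aak(0) post-dauers and 1412 and 1200 FPKM in daf-2 hzl-1 post-dauers, so the order of the genotypes turned. In dauers 4 of 13 somatic markers were called higher with aak(0), where 25.5% of all tested genes were. Libraries 1 and 2 of the aak(0) dauers held 282 and 11 reads of vit-2 and 342 and 16 of vit-6. The collagen gene col-19, named because of its value, had 183 and 4 reads there. The source of this difference between the libraries was not tested. None of the germline, meiotic, sperm, somatic gonad and somatic markers was listed at 0 in both libraries of any group. The part of these cell types in the differences of the 10 genes was not tested.

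Early zygotic genes are transcribed after fertilisation. Some of those listed as markers differed between the genotypes in post-dauers and were not called by limma in dauers. The 12 markers summed to 56.8 and 31.3 FPKM in aak(0) post-dauers, 10.2 and 13.5 FPKM for daf-2 hzl-1 post-dauers, 13.8 and 15.9 FPKM in aak(0) dauers and 11.1 and 12.9 FPKM in daf-2 hzl-1 dauers. Of these sums elt-1 alone made up 11.13 and 13.21 FPKM in aak(0) dauers and 10.13 and 11.46 FPKM in daf-2 hzl-1 dauers. In post-dauers elt-1 made up 15.86 and 11.97 FPKM with aak(0) and 5.39 and 5.00 FPKM with daf-2 hzl-1. Dauers are larvae, so the level of elt-1 does not by itself mark embryos. Of the 4 that passed the filter, 3 were higher in aak(0) post-dauers: pes-10 (limma log2 1.86 ± 0.25, adjusted p = 0.0120), vet-6 (limma log2 2.82 ± 0.22, adjusted p = 0.00241) and elt-1 (limma log2 1.26 ± 0.22, adjusted p = 0.0300). The other, vet-2, was not called and measured 20.23 and 2.30 FPKM in aak(0) post-dauers, against 3.58 and 5.62 FPKM in daf-2 hzl-1 post-dauers. In dauers 0 of 4 were called by limma, 0 at an unadjusted p under 0.05, and 1 by edgeR and DESeq2 each. At 0 in both libraries were sdz-23 in aak(0) post-dauers, med-1 and sdz-23 in daf-2 hzl-1 post-dauers, med-1 in aak(0) dauers and end-3, tbx-37, tbx-38, sdz-23, vet-6 and ceh-51 in daf-2 hzl-1 dauers. The genes pes-10 and vet-6 reached a mean of 1 FPKM only through the aak(0) post-dauers, where they were high. The count of 3 of 4 was therefore partly set by the filter, and it is not compared with the 10 genes.

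Set against the mean log2(FPKM + 1) of the 9 germline markers in the same library, 9 of the 10 genes were still higher in aak(0) dauers. That relative difference ranged up to log2 2.99 for puf-5, with 2.67 for pos-1, 2.63 for mex-5, 2.05 for puf-11 and 2.04 for mex-6. It was log2 1.42 for oma-2, 1.23 for oma-1, 1.23 for spn-4 and 0.89 for mex-3. For pie-1 it was log2 -0.64, since pie-1 stood at -0.79 ± 0.05 relative to the markers in aak(0) dauers and -0.16 ± 0.16 in daf-2 hzl-1 dauers (SD, n = 2). The marker mean itself was log2 1.20 higher in aak(0) dauers and differed by log2 -0.32 in post-dauers, and all 10 relative differences in post-dauers were above 0, from log2 0.21 (mex-5) to 0.60 (pos-1).

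**Figure D5:**
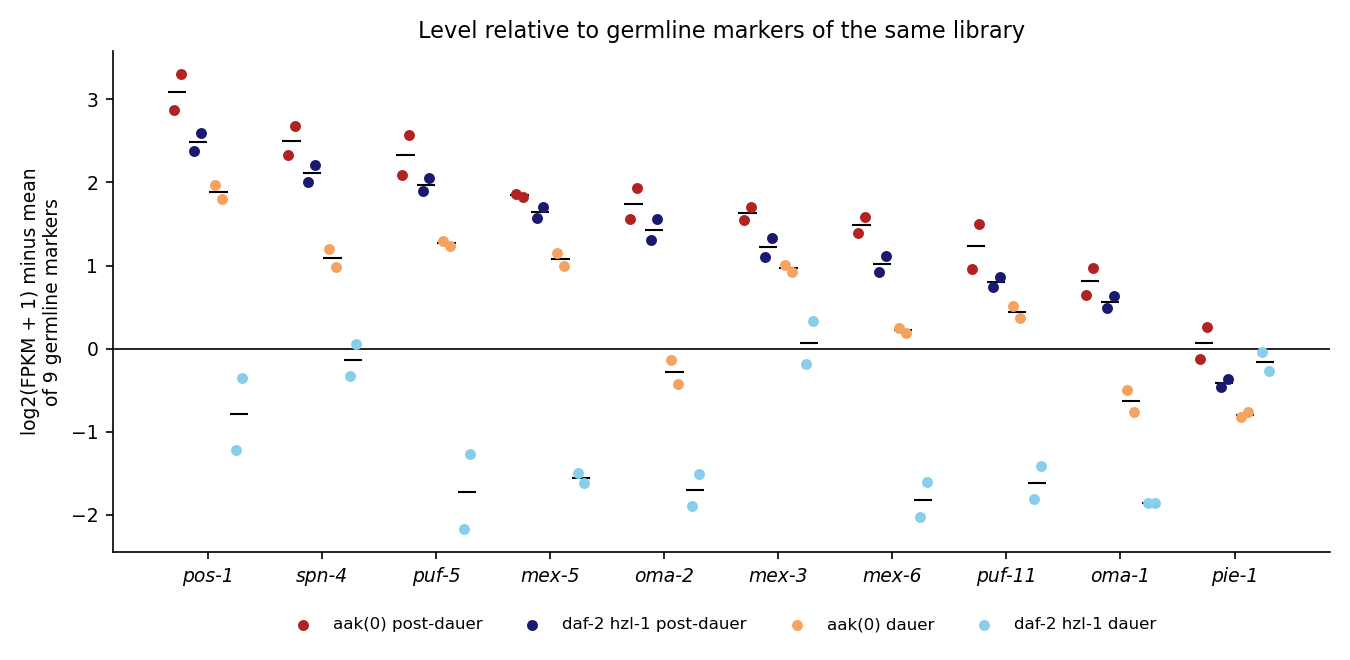
Log2(FPKM + 1) of each of the 10 genes minus the mean of 9 germline markers in the same library, with points for single libraries and bars for the mean of a group. In dauers the aak(0) points lie above the daf-2 hzl-1 points for 9 genes and below them for pie-1.

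Against the 10 meiotic prophase markers, whose mean was log2 0.11 higher in aak(0) dauers, all 10 genes were above 0, from log2 0.45 for pie-1 to 4.08 for puf-5. The sign for pie-1 thus turned with the marker list.

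Against the oocyte and eggshell markers, whose mean was log2 3.29 higher in aak(0) dauers, the pattern was another. Relative to that mean, 3 of the 10 genes were above 0, namely puf-5 (log2 0.90), pos-1 (log2 0.58) and mex-5 (log2 0.54). The other 7 were below it, from log2 -0.04 for puf-11 and -0.05 for mex-6 down to -1.19 for mex-3 and -2.73 for pie-1. These relative values are descriptions without a test.

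Among genes outside the 10 that have a standard gene name and a mean of at least 5 FPKM, the profile over the 8 libraries most like the mean profile of the 10 genes was that of idh-1, an isocitrate dehydrogenase gene (Pearson r = 0.9994). Next came gln-6 (r = 0.9993), nasp-2 (r = 0.9993), gln-5 (r = 0.9992) and ceh-49 (r = 0.9991). Of all 11211 genes at that level, the 10 included, 270 reached r = 0.99. Both gln genes encode glutamine synthetases and ceh-49 encodes a homeobox protein. The libraries fall into groups at separate levels, and r is given as a description with no p. Of the 10 genes themselves, which enter the mean, mex-6 had the highest r (0.9994) and pie-1 the lowest (0.939). For gln-5 the level was 226.15 and 315.99 FPKM in aak(0) post-dauers and 250.04 and 249.36 FPKM in daf-2 hzl-1 post-dauers, against 43.35 and 41.53 FPKM in aak(0) dauers and 4.04 and 4.46 FPKM in daf-2 hzl-1 dauers. The homeobox gene ceh-49 measured 21.71 and 23.61 FPKM in aak(0) post-dauers, 18.74 and 22.87 FPKM in daf-2 hzl-1 post-dauers. It measured 4.87 and 4.36 FPKM in aak(0) dauers, and was listed at 0 in both daf-2 hzl-1 dauer libraries.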

How the data were processed

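The authors deposited FPKM values for 8 libraries of poly(A) RNA and, for each genotype, count signal divided by size factors beside log2 fold changes and adjusted p-values from DESeq2, per the file headers. A KAPA mRNA HyperPrep kit was used, with paired reads of up to 80 nt, per the labels' protocols. Trimmomatic 0.35, STAR 2.7.1a, RSEM, DESeq2 1.30.1 and the build WBcel235 are named per the submitters' processing notes, with no role. The annotation release is not given in the sources used here.

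The design allowed for raw counts; as the files held FPKM, limma 3.58.1 (R 4.3.3) with a trend was fitted to log2(FPKM + 1) for genes whose mean FPKM reached 1. All 8 libraries entered, without a replicate block, with 4 residual and 2.69 prior degrees of freedom. Adjustment was by Benjamini-Hochberg over 15365 genes, with calls under 0.05. The pseudocount understates changes of low genes. Groups of 2 allow no permutation p under 0.333, so no permutation test was run. All deposited size-factor-divided values (100%, tolerance 1e-06) were whole multiples of 1 read, and edgeR 4.0.16 (17050 genes) and DESeq2 1.42.0 were run on the recovered reads. The fits were checked on simulated data.

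Correlations of deviations between groups by replicate number ran from -0.258 to 0.0147, which does not settle whether the numbers pair the samples. The 10 genes and all lists were chosen with earlier results of these data known. Other genes named come from a set list of relatives, partners and targets or have the 2 smallest adjusted p of their list and comparison, except where stated.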

Additional observations from a re-analysis of the deposited data

Results flagged for a closer look

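The stage change differed between the genotypes for 9 of the 10 genes, by the limma interaction term described above. The values, as the log2 change from dauer to post-dauer in aak(0) minus that in daf-2 hzl-1, were -4.158 for puf-5, -3.951 for mex-5, -3.595 for pos-1, -3.149 for puf-11 and -3.095 for mex-6. They were -2.634 for oma-2, -2.507 for oma-1, -2.364 for spn-4 and -2.014 for mex-3. Oocyte, sperm and germline markers differed between the genotypes of dauers as well, and their part in these values was not tested.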

How the results depend on the processing

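The counts of the 10 genes called were 10 and 10 for the stage changes in aak(0) and daf-2 hzl-1, 0 for post-dauers and 9 for the interaction under every alternative run: another pseudocount or filter, TMM scaling, edgeR and DESeq2 on recovered reads, only the groups compared (not run for the interaction, which needs all 4 groups), a replicate block, and each library left out in turn. In dauers the count was 9, and 10 without daf-2 hzl-1 dauer library 1, when pie-1 was called. Of 850 single values, 20 turned sign, all of them uncalled genotype differences in post-dauers. With TMM scaling these were mex-3 (log2 -0.04136), spn-4 (-0.05813), puf-5 (-0.09008) and puf-11 (-0.02001). With edgeR they were mex-3 (-0.02994) and puf-5 (-0.005457), with DESeq2 mex-3 (-0.08072), spn-4 (-0.04459) and puf-5 (-0.05853), and with edgeR and no filter mex-3 (-0.08485), spn-4 (-0.05568), pie-1 (-0.0003841), puf-5 (-0.07355) and puf-11 (-0.00809). With 1 library left out, values ranged from -0.186 to 0.03293 for oma-1, from -0.1472 to 0.1226 for oma-2, from -0.04763 to 0.1831 for spn-4, from -0.1487 to 0.2202 for puf-5 and from -0.11 to 0.3207 for puf-11. The cause was not tested.

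Counts over all genes moved more. For the stage change in aak(0) 8130 genes were called, against 5334 and 5004 without aak(0) dauer library 1 and 2. In dauers 4464 were called, against 1309 and 1440 without the same libraries. In post-dauers 716 were called, against 1080 by DESeq2, 1905 by edgeR with no filter, 147 with only those groups fitted, 367 with the replicate block and 95 to 1780 with 1 library left out. For the interaction 1743 were called, against 3460 by edgeR with no filter, 1044 with the replicate block and 352 to 3947 with 1 library left out. Numbers of the post-dauer pair correlated at -0.258, so a crossed pairing was added after seeing the data; it called 0 of the 10 genes and 601 genes in all.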

Other observations

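The libraries of aak(0) post-dauers stood far apart for some polarity and RNA-binding genes outside the 10, chosen here after their values were seen. The myosin gene nmy-2 measured 104.16 and 26.45 FPKM in aak(0) post-dauers and 95.13 and 108.74 FPKM in daf-2 hzl-1 post-dauers. The PUF gene puf-12 measured 90.88 and 18.28 FPKM in aak(0) post-dauers and 74.09 and 98.67 FPKM in daf-2 hzl-1 post-dauers. The Notch receptor gene glp-1, a target of POS-1 and SPN-4, measured 65.10 and 29.22 FPKM in aak(0) post-dauers and 54.87 and 59.20 FPKM in daf-2 hzl-1 post-dauers. In the same libraries the 10 genes differed by at most 1.35-fold.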
